A study of Mus musculus with 28 samples.

Results

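The comparison described here is that of the heterozygous Tbl1xr1 D370Y allele with unmutated Tbl1xr1 in mouse germinal center B cells that also carried the ImuBcl6 allele. It rests on 10 of the 28 libraries of the series, 5 per genotype, chosen by their titles and genotype labels alone. The D370Y libraries have the genotype ImuBCL6, Cg1Cre(+/-), Tbl1xr1(D370Y/WT), and the control libraries have ImuBCL6, Cg1Cre(+/-), Tbl1xr1(WT/WT). Both groups therefore share the ImuBcl6 allele, in which the immunoglobulin heavy-chain locus drives Bcl6, and 1 copy of Cg1Cre, which makes Cre recombinase in B cells that respond to antigen. Every statement is about the effect of D370Y on top of those alleles. The age of the mice, the sort that gave the germinal center B cells and the animal behind each library are not given in the sources used here, so p-values measure the spread between these libraries, which may be technical in part. Levels are the authors' CPM, reads scaled to library depth, for 23382 gene symbols, and 10347 of the 21880 autosomal symbols passed a filter of at least 1 CPM in 5 or more of the 10 libraries.

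TBL1XR1 carries WD40 repeats and belongs to the SMRT/NCOR corepressors, a complex that removes acetyl groups from histones through HDAC3. BCL6, the repressor that holds B cells in the germinal center state, recruits this complex to genes of signalling, migration and differentiation. Germinal center B cells cycle between a dark zone, where they divide and mutate their immunoglobulin genes, and a light zone, where they are selected, and leave as memory B cells or plasma cells. The D370Y substitution lies in the WD40 part of TBL1XR1 and comes from B cell lymphomas, and the series title names a memory B cell fate.

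Fold changes are differences of log2(CPM + 1) between the groups, with the standard error (SE) of limma's fit, and group levels are mean ± SD over 5 libraries each. A gene was called, and is said to have risen or fallen, where its Benjamini-Hochberg adjusted p from limma was below 0.05 over all genes fitted. The scale understates the change of genes near 1 CPM. In these bulk libraries fewer cells of a type and less RNA per cell cannot be told apart. The gene lists were drawn up with earlier results of these data known. Counts within a list therefore describe its members and do not test the list.

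Limma called 834 of the 10347 autosomal genes (8.06%), 287 higher (2.77%) and 547 lower (5.29%) with D370Y. The counts given below for gene lists are to be read beside these shares. List counts at an unadjusted p below 0.05 are to be read beside 2485 of the 10347 genes, both directions together. A further description without a test is that the 2 groups of libraries did not overlap at 916 genes (8.85%), 642 of them called. Rises were fewer and larger than falls: the median called rise was 0.47 and the median called fall -0.33 on the log2 scale, while the median over all tested genes was -0.01. The higher genes were also less abundant, with a median level of 22.5 CPM against 61.6 CPM for the lower genes. A change of 1 or more on the log2 scale was reached by 15 higher and 24 lower genes. The calls depended on single libraries: without control library 3, D370Y library 2 or D370Y library 3 the fit called 151, 178 or 176 genes higher and 253, 328 or 287 lower. In all 10 fits that left out 1 library each, 136 of the higher and 233 of the lower genes stayed called, and these carry most of what follows.

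Reads on listed genes numbered 31.8 to 37.7 M per library, and a difference in depth between the groups was not detected (exact permutation p = 0.563, two-sided, n = 5 per group). The reads on listed genes made up 80.3 ± 0.449% of the authors' denominator with D370Y and 81.5 ± 0.449% in the controls, without overlap (exact permutation p = 0.00794, two-sided, the smallest that 5 against 5 can give). Sex-linked transcripts ran together with genotype. All 5 D370Y libraries had the Y-linked pattern and all 5 controls the Xist pattern, so that the effect of D370Y and that of sex cannot be told apart within this comparison. In the Tbl1xr1 KO and Cre control libraries both patterns occur in both groups. A fit there with genotype and sex pattern as terms called 0 of 10106 autosomal genes by sex pattern (limma, 1678 genes at an unadjusted p below 0.05). KO library 3, with 64.4% of its denominator on listed genes, was in that fit, and 0 were called without it. The 1678 genes of the full fit are a larger share than the 0.05 expected if no gene differed. A count of 0 calls therefore does not show that sex pattern had no effect. Of the 287 genes higher with D370Y, 276 were tested there, and 189 had a positive value for the Y-linked pattern, with a median of 0.11 against 0.08 over all genes. The corresponding count was 280 of 528 for the lower genes, with a median of 0.01.

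Long transcripts fell more often than short ones. With genes in 5 equal classes from the shortest to the longest transcripts, the counts of higher genes were 82, 71, 53, 43 and 38, and the counts of lower genes were 23, 59, 79, 149 and 237. The median fold change went from 0.08 to -0.09 along the same order, and over all 10347 genes the fold change and transcript length had a Spearman rho of -0.349, where genes are not independent replicates. The trend sat in single libraries. Control libraries 1, 2 and 3 had higher values for long transcripts than the mean of the 10 libraries (rho 0.451, 0.303 and 0.406), control libraries 4 and 5 had lower ones (-0.150 and -0.214), and the 5 D370Y libraries lay between -0.326 and -0.078. After the length and GC trends were removed from each library, a setting added after seeing the data, 552 genes were called higher and 628 lower. Of the genes called before, 255 of 287 and 413 of 547 were still called, and 0 were called in the opposite direction. With the length trend alone removed, also a setting added after seeing the data, 286 genes were called higher and 342 lower. Under that setting 228 of the 287 and 303 of the 547 genes were still called, and 0 were called in the opposite direction. Counts after removal of both trends are given below for some lists. Among these are the lists of 2 or more calls in 1 direction where that count moved by 1.5 times or more. Such counts are to be read beside the 552 higher and 628 lower of all 10347 genes under that setting. The part that transcript length played in the results was not tested further.

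**Figure D1:**
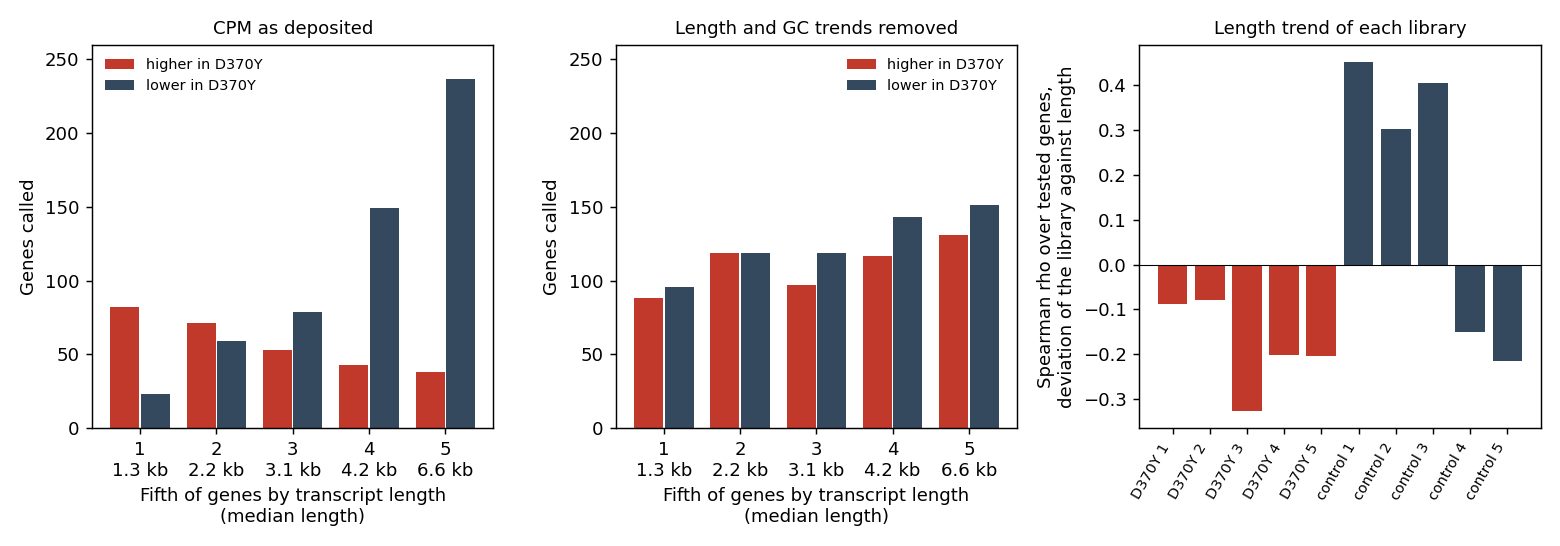
Genes called higher (red) and lower (blue) with D370Y in 5 equal classes of transcript length, with the CPM as deposited (left) and after length and GC trends were removed from each library (middle), and the length trend of each library as Spearman rho (right). The lower calls are most frequent in the class of longest transcripts (237) as deposited and range from 96 to 151 per class after removal.

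Tbl1xr1 itself (chromosome 3, 22076652 to 22216594, plus strand, mm10 positions) stood at 97.9, 101, 94.7, 98.6 and 98.9 CPM in D370Y libraries 1 to 5 and at 159, 129, 134, 113 and 106 CPM in control libraries 1 to 5. All 5 D370Y libraries lay within a few CPM of each other and below every control, of which library 1 was the highest. The difference passed the test (log2 fold change -0.37 ± 0.09 SE, adjusted p = 0.0261), but the call was lost without D370Y library 2, 3 or 5 or without control library 2 or 3 (adjusted p = 0.0504 to 0.0785) and with no filter on low values. Bcl6 (chromosome 16, 23965052 to 23988852, minus strand) stood at 435, 462, 422, 512 and 504 CPM in D370Y libraries 1 to 5 and at 547, 546, 589.7, 544 and 522 CPM in control libraries 1 to 5. The groups did not overlap, but the highest D370Y library, 4, was just below the lowest control, 5. The fall was small (-0.24 ± 0.06, adjusted p = 0.0344), and the call was lost without D370Y library 1, 2 or 3 or without control library 2, 3 or 4 (adjusted p = 0.0632 to 0.103) and in edgeR's quasi-likelihood test, with CPM recomputed over listed genes, with the length trend removed and with no filter. Counts of a whole gene do not show which Tbl1xr1 allele the reads came from. Nor do they show whether Bcl6 reads came from the gene's own locus or from the ImuBcl6 allele.

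Among 21 tested subunits of the SMRT/NCOR complex and other corepressors of BCL6, 4 fell and 0 rose (limma; 5 of 21 had a positive fold change), with a median log2 fold change of -0.12. Besides Tbl1xr1 these were the CoREST scaffold Rcor1 (from 67.2 ± 8.87 to 52.8 ± 2.79 CPM), the class IIa deacetylase Hdac7 (from 163 ± 14.7 to 132 ± 15.4 CPM) and the demethylase Kdm1a (from 113 ± 4.44 to 97.2 ± 3.64 CPM). All 4 calls were lost when some single libraries were left out: Rcor1 without D370Y library 2, 3 or 5 or without control library 2 or 3 (adjusted p = 0.0591 to 0.0917), Hdac7 without D370Y library 1, 2 or 3 or without control library 2, 3, 4 or 5 (adjusted p = 0.0587 to 0.137) and Kdm1a without D370Y library 1, 2, 3 or 5 or without control library 3 or 4 (adjusted p = 0.0501 to 0.0713). At an unadjusted p below 0.05, 0 members were higher and 9 lower. On chromosome 3, 56 genes within 15 Mb of Tbl1xr1 were tested and 3 besides it were called, namely Zfp704, Nceh1 and Rpl22l1. Over all autosomal genes 8.06% were called.

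The largest rises are described first, apart from the T cell gene Cd3g, which is given with the markers of other cells. Cd36, a scavenger receptor and fatty acid transporter at the cell surface, stood at 112, 110.1, 112, 79.98 and 90.4 CPM in D370Y libraries 1 to 5 and at 62.1, 47.1, 35.3, 32.7 and 27.03 CPM in control libraries 1 to 5. Every D370Y library was above every control, with control library 1 the highest of its group (log2 fold change 1.33 ± 0.19 SE, adjusted p = 0.00189). Bcl2, the survival protein that germinal center B cells normally keep low, stood at 14.5, 15.2, 18.8, 16.6 and 13.5 CPM in D370Y libraries 1 to 5 and at 7.55, 9.08, 5.44, 7.89 and 5.097 CPM in control libraries 1 to 5. The groups did not overlap, and D370Y library 3 was the highest (1.08 ± 0.14, adjusted p = 0.00125).

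Zeb2, a zinc finger transcription factor of effector and atypical memory lymphocytes, stood at 24.1, 23.2, 35.1, 29.6 and 22.2 CPM in D370Y libraries 1 to 5 and at 11.5, 16.5, 8.63, 10.3 and 9.99 CPM in control libraries 1 to 5. Control library 2 came closest to the D370Y range without reaching it (log2 fold change 1.18 ± 0.16 SE, adjusted p = 0.00159). Gpr183, the oxysterol receptor EBI2 that draws B cells to the edge of the follicle, stood at 15.7, 17.2, 24.2, 26.6 and 14.3 CPM in D370Y libraries 1 to 5 and at 7.22, 9.49, 7.26, 8.48 and 7.31 CPM in control libraries 1 to 5. All 5 controls were below 10 CPM and all 5 D370Y libraries above 14 (1.17 ± 0.16, adjusted p = 0.00141). Cd38, an ectoenzyme that mouse naive and memory B cells carry and germinal center B cells lose, stood at 94.9, 107, 136, 148 and 89.1 CPM in D370Y libraries 1 to 5 and at 55.5, 61.4, 50.1, 50.8 and 55.7 CPM in control libraries 1 to 5. The controls were close together and D370Y libraries 3 and 4 were the highest (1.03 ± 0.13, adjusted p = 0.00108).

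Plac8, a small cysteine-rich protein, stood at 110.1, 132, 258, 114.3 and 96.1 CPM in D370Y libraries 1 to 5 and at 49.4, 67.3, 40.4, 60.1 and 64.2 CPM in control libraries 1 to 5. D370Y library 3 was far above the other 4, which were themselves above every control (log2 fold change 1.25 ± 0.23 SE, adjusted p = 0.00699). The same library was the highest for Emr1, the gene of the F4/80 antigen of macrophages, which stood at 6.73, 7.24, 17.7, 10.3 and 4.35 CPM in D370Y libraries 1 to 5 and at 2.59, 3.84, 2.599, 3.12 and 3.04 CPM in control libraries 1 to 5. It was also the highest for Itgam, the integrin CD11b of myeloid and atypical memory B cells, at 4.496, 4.78, 8.91, 6.83 and 4.49 CPM in D370Y libraries 1 to 5 and at 2.42, 2.42, 1.94, 1.84 and 1.57 CPM in control libraries 1 to 5, and for Atxn1, at 4.82, 4.803, 10.8, 3.34 and 4.05 CPM in D370Y libraries 1 to 5 and at 2.02, 3.07, 1.54, 1.62 and 1.08 CPM in control libraries 1 to 5. None of these 4 genes overlapped between the groups, and all 4 stayed called without D370Y library 3 and in each other fit that left out 1 library. The interferon-inducible GTPase Iigp1 (from 2.99 ± 0.838 to 8.42 ± 2.28 CPM, 1.23 ± 0.18) also rose without overlap.

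Among the largest falls were membrane and cell shape genes. Emp2, a membrane protein with 4 spans, stood at 1.18, 0.704, 0.824, 1.06 and 0.702 CPM in D370Y libraries 1 to 5 and at 6.98, 9.13, 6.42, 6.27 and 15.3 CPM in control libraries 1 to 5. All D370Y libraries were near 1 CPM and below every control, so that Emp2 passed the filter through the controls and 2 D370Y libraries, and control library 5 was the highest (log2 fold change -2.31 ± 0.20 SE, adjusted p = 3.59e-05). Celsr1, an atypical cadherin of planar cell polarity, stood at 9.04, 7.898, 4.34, 5.65 and 8.12 CPM in D370Y libraries 1 to 5 and at 15.5, 22.9, 23.5, 19.1 and 21.2 CPM in control libraries 1 to 5. The highest D370Y library, 1, remained well below the lowest control, also 1 (-1.44 ± 0.17, adjusted p = 0.00078). Nav2, a cytoskeleton-associated protein of the neuron navigator family, stood at 1.66, 1.58, 1.72, 1.71 and 1.85 CPM in D370Y libraries 1 to 5 and at 4.96, 5.54, 5.76, 5.73 and 4.84 CPM in control libraries 1 to 5. Both groups were spread over less than 1 CPM and lay far apart (log2 fold change -1.23 ± 0.09 SE, adjusted p = 4.03e-06).

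Slc15a2, a proton-coupled peptide transporter, stood at 3.76, 1.86, 1.42, 1.76 and 1.89 CPM in D370Y libraries 1 to 5 and at 12.8, 6.15, 21.2, 9.804 and 6.18 CPM in control libraries 1 to 5. The controls varied widely, with library 3 the highest, yet none came down to D370Y library 1, the highest of its group (-1.87 ± 0.29, adjusted p = 0.00282). Dhrs3, a reductase that turns retinaldehyde back to retinol, stood at 4.08, 5.02, 3.39, 2.53 and 4.75 CPM in D370Y libraries 1 to 5 and at 7.98, 9.53, 12.7, 12.7 and 12.7 CPM in control libraries 1 to 5. The groups were separate, with control libraries 1 and 2 the lowest of the controls (-1.30 ± 0.16, adjusted p = 0.00122). Eepd1, of the endonuclease, exonuclease and phosphatase family, stood at 3.297, 3.69, 2.12, 4.69 and 3.53 CPM in D370Y libraries 1 to 5 and at 6.82, 11.7, 10.1, 10.5 and 23.6 CPM in control libraries 1 to 5. Control library 5 stood far above the other controls, and all 5 controls were above the D370Y libraries (log2 fold change -1.51 ± 0.25 SE, adjusted p = 0.00423). D0H4S114 (-1.56 ± 0.25) and Vopp1 (-1.30 ± 0.20) fell by similar amounts, without overlap, and held in all 10 leave-one-out fits. The Eph receptor Ephb2 (-1.16 ± 0.27, adjusted p = 0.0202) overlapped between the groups, and its call was lost without D370Y library 2 or 3 (adjusted p = 0.0514 to 0.0545).

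**Figure D2:**
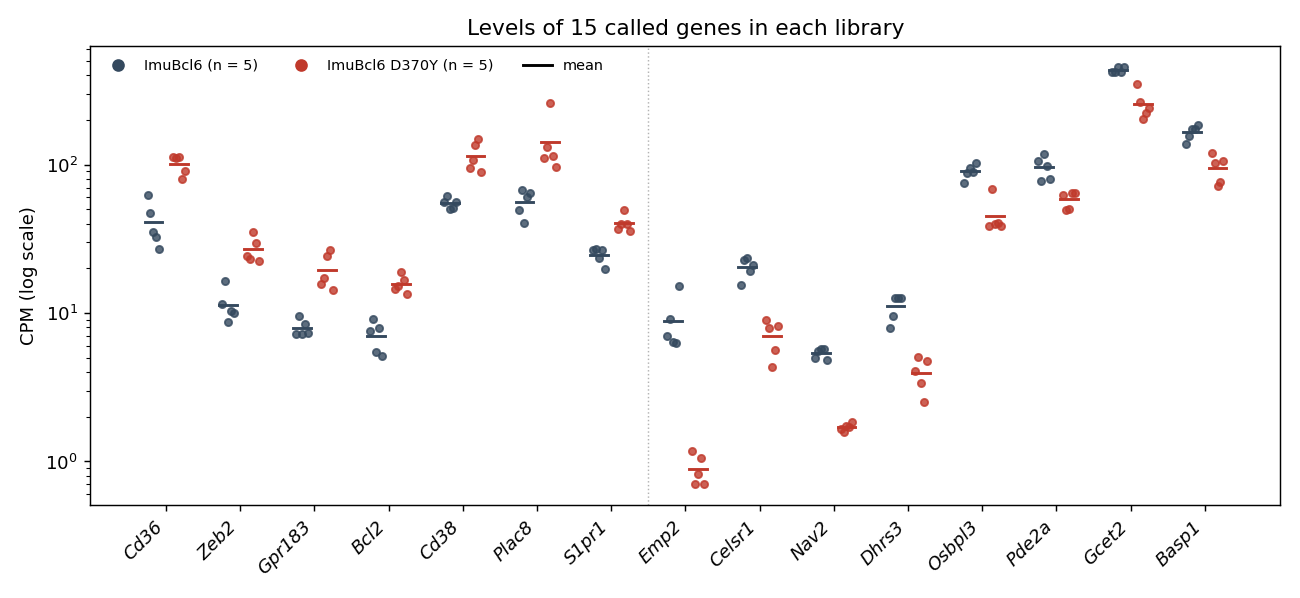
CPM on a log axis of 7 genes that rose (left of the dotted line) and 8 that fell in each of the 5 ImuBcl6 (blue) and 5 ImuBcl6 D370Y (red) libraries, with the mean as a short line. The groups do not overlap at any of the 15 genes, and Plac8 reaches 258 CPM in 1 D370Y library.

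Abundant genes changed by smaller folds and by more CPM. The coactivator Pou2af1, which B cells need for germinal centers, stood at 1777, 1880.2, 1620.5, 1955 and 1794 CPM in D370Y libraries 1 to 5 and at 2106, 2166, 2308, 2127 and 2478 CPM in control libraries 1 to 5, with every D370Y library below every control (-0.31 ± 0.06, adjusted p = 0.0103). Cyfip2, a subunit of the WAVE actin complex, stood at 834, 854, 848, 863 and 894 CPM in D370Y libraries 1 to 5 and at 1145, 1110.4, 1174, 1114 and 1102 CPM in control libraries 1 to 5 and separated just as fully (log2 fold change -0.39 ± 0.04 SE, adjusted p = 0.00039). The lysosomal membrane protein Laptm5 went from 1562 ± 151 to 1233 ± 72.6 CPM (-0.34 ± 0.07) and the Kelch-like protein Klhl6, a target of mutations in lymphoma, from 819 ± 76.5 to 618 ± 63.6 CPM (-0.41 ± 0.08). In the other direction the ribosomal protein Rpl4 went from 2815 ± 94.2 to 3362 ± 223 CPM and the B cell scaffold Bank1 from 195 ± 32.03 to 313 ± 33.9 CPM. The lysosomal protease Ctsc went from 122 ± 2.87 to 168 ± 10.98 CPM (0.46 ± 0.05, adjusted p = 0.00078), with a narrow spread in the controls.

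Genes of memory B cells were among the rises. Of 28 listed genes 26 were tested, 8 rose and 1 fell, against 2.77% and 5.29% of all genes, and their median log2 fold change was 0.28. They include Plac8, Zeb2, Gpr183, Bcl2, Cd38, S1pr1 and Ccr7, and 7 of the 8 held in all 10 leave-one-out fits. S1pr1, the sphingosine phosphate receptor for leaving lymphoid tissue, stood at 36.5, 39.9, 49.2, 39.8 and 35.6 CPM in D370Y libraries 1 to 5 and at 26.5, 27.2, 23.4, 26.4 and 19.9 CPM in control libraries 1 to 5 and did not overlap (0.68 ± 0.10, adjusted p = 0.0024). The chemokine receptor Ccr7 overlapped and was less certain (0.57 ± 0.14), its call being lost without D370Y library 1, 2, 3 or 4 or without control library 3 or 5 (adjusted p = 0.0512 to 0.0807). Ephb2 was the member that fell.

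Several of these genes also belong to the list of follicular and naive B cell markers, of which 8 of 15 rose (median 0.37) and 7 held in all 10 leave-one-out fits. The 2 lists share 8 genes, among them Cd38, S1pr1 and Ccr7, which rose. Bank1, Gimap6, Foxp1 and Cd55, a complement regulator (from 13.9 ± 2.65 to 22.5 ± 3.46 CPM, 0.67 ± 0.14), are in the naive list and not in the memory list. The summed level of the naive markers was 1822 to 2018 CPM with D370Y and 1379 to 1592 CPM in the controls, so the groups did not overlap, and the part of naive or follicular B cells in the memory gene result was not tested.

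Receptors that place B cells in the follicle changed in both directions, with 6 of 25 tested higher and 3 lower. Beside Gpr183, S1pr1 and Ccr7, the rises were the sphingosine phosphate receptors S1pr4 (from 20.5 ± 2.39 to 28.5 ± 3.2005 CPM, 0.46 ± 0.09) and S1pr3 (from 32.03 ± 3.98 to 41.6 ± 3.02 CPM, 0.37 ± 0.08), which held in all 10 leave-one-out fits, and the lysophospholipid-linked receptor Gpr132 (0.60 ± 0.15), which was not called without D370Y library 1, 2 or 3 or without control library 3, 4 or 5 (adjusted p = 0.0538 to 0.0778). The dark zone chemokine receptor Cxcr4 stood at 226, 236, 169.9, 202 and 239 CPM in D370Y libraries 1 to 5 and at 276, 262, 319.7, 285 and 268 CPM in control libraries 1 to 5. Control library 3 was the highest and D370Y library 3 the lowest, without overlap (-0.40 ± 0.09, adjusted p = 0.0182), and the call was lost without control library 3 (adjusted p = 0.0578). The signalling regulator Rgs1 (-1.11 ± 0.30) and the G protein Gna13 (-0.28 ± 0.07), which confines germinal center B cells, also fell, and their calls were lost without D370Y library 2, 3, 4 or 5 or without control library 1, 3 or 4 (adjusted p = 0.0607 to 0.115) and without D370Y library 2, 3, 4 or 5 or without control library 2 or 3 (adjusted p = 0.0542 to 0.104).

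Adhesion molecules rose more often than they fell (7 and 2 of 29, median 0.15). Besides Itgam, these included the cell adhesion molecules Alcam (from 27.98 ± 3.11 to 42.4 ± 5.29 CPM, 0.58 ± 0.10) and Cd2 (from 138 ± 11.1 to 189 ± 16.1 CPM, 0.46 ± 0.07), which held in all 10 leave-one-out fits. Without D370Y library 3 or control library 3, 4 members were higher in each fit. The integrin subunit Itgb3 went the other way, from 92.4 ± 10.2 to 62.6 ± 9.83 CPM (-0.56 ± 0.11, adjusted p = 0.00864).

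Genes of the germinal center state were among the falls. Of 25 tested genes of the germinal center list, 7 fell and 0 rose (limma; 14 and 1 at an unadjusted p below 0.05, 7 and 0 by edgeR, 9 and 0 by DESeq2), with a median of -0.19. The falls numbered 10 after length and GC removal. Gcet2, a germinal center signalling adaptor now named Gcsam, stood at 351, 266, 202, 224 and 239.7 CPM in D370Y libraries 1 to 5 and at 422, 419, 454, 418 and 455 CPM in control libraries 1 to 5. D370Y library 1 was the highest of its group and still below all controls (log2 fold change -0.78 ± 0.12 SE, adjusted p = 0.00254). Basp1, a membrane-bound protein that binds actin regulators, stood at 119, 103, 72.1, 76.6 and 106 CPM in D370Y libraries 1 to 5 and at 137, 156, 173, 173 and 186 CPM in control libraries 1 to 5, also without overlap (-0.80 ± 0.13, adjusted p = 0.0042). Gm600, the nuclear GTPase Nuggc of germinal center B cells, went from 430.3 ± 22.9 to 339.5 ± 26.5 CPM (-0.34 ± 0.06) and the semaphorin receptor Plxnb2 from 415 ± 33.4 to 317 ± 18.8 CPM (-0.39 ± 0.07), the latter not called after the length trend was removed. The focal adhesion protein Lpp fell by 0.73 on the log2 scale with overlap between the groups, and was not called without control library 3 (adjusted p = 0.0565).

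In the dark zone list 6 of 22 genes fell and 1 rose (median -0.18), and without D370Y library 3 or control library 3 the falls numbered 4 or 3. After length and GC removal 9 fell. The falls include Cxcr4, Gcet2, the translesion polymerase Polh (from 200.3 ± 22.1 to 149 ± 11.6 CPM, -0.42 ± 0.08) and the transcription factor Foxo1 (from 196 ± 16.1 to 161 ± 12.2 CPM, -0.28 ± 0.07). Foxo1 was not called without D370Y library 3 or without control library 3 (adjusted p = 0.0664 to 0.0843), nor after length and GC removal. The transcription factor Foxp1 rose with overlap between the groups (from 149 ± 20.3 to 193 ± 12.6 CPM, 0.37 ± 0.09). In the light zone list, Gpr183 alone of 25 genes was called (limma; 5 higher and 4 lower at an unadjusted p below 0.05), with a median of -0.01, and 2 rose and 2 fell after length and GC removal. Among 45 B cell transcription factors 3 rose and 4 fell, of which Zeb2, Foxp1 and Pou2af1 held in all 10 leave-one-out fits.

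Genes of somatic hypermutation and class switch repair fell in 7 of 40 cases, 5 of them in all 10 leave-one-out fits. After Polh these included the checkpoint mediator Mdc1 (from 154 ± 11.6 to 120.2 ± 9.41 CPM, -0.35 ± 0.07), the mismatch repair subunit Msh6 (from 274 ± 22.2 to 227 ± 7.44 CPM, -0.26 ± 0.06) and 8430410A17Rik (from 859 ± 47.3 to 693 ± 22.1 CPM, -0.31 ± 0.05). For each of these 4 genes the D370Y libraries were all below the controls. The histone gene H2afx (-0.32 ± 0.09) also fell but was not called without D370Y library 1, 2, 3 or 4 or without control library 2, 3, 4 or 5 (adjusted p = 0.0525 to 0.098). Supt6h (-0.23 ± 0.05), a transcription elongation factor, held in the leave-one-out fits and was not called after length and GC removal. At an unadjusted p below 0.05, 1 member was higher and 13 were lower.

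The calls among cell division genes were mostly falls of small size. In the G2/M and mitosis list 16 of 63 fell and 0 rose (limma; 25 and 0 at an unadjusted p below 0.05, 15 and 0 by edgeR, 17 and 0 by DESeq2), at a median of -0.15. Without D370Y library 3 or control library 3, 8 or 9 fell, and after length and GC removal 20 did. The mitotic transcription factor Foxm1 stood at 102, 100.4, 102, 119 and 121 CPM in D370Y libraries 1 to 5 and at 153, 139.5, 158, 129 and 147 CPM in control libraries 1 to 5. D370Y libraries 4 and 5 were the highest of their group and stayed below control library 4 (log2 fold change -0.41 ± 0.07 SE, adjusted p = 0.00618). The condensin subunit Ncapd2 went from 649.97 ± 22.6 to 522 ± 36.03 CPM (-0.32 ± 0.06), the nuclear lamin Lmnb1 from 556 ± 20.2 to 453 ± 22.6 CPM (-0.30 ± 0.05) and the separase gene Espl1 from 118 ± 9.04 to 91.2 ± 7.89 CPM (-0.37 ± 0.07).

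In the G1/S and DNA replication list 6 of 57 fell, among them the maintenance methyltransferase Dnmt1 (from 1041 ± 57.3 to 839 ± 46.1 CPM, -0.31 ± 0.06) and the replicative polymerase Pole (from 209 ± 8.64 to 176 ± 5.01 CPM, -0.25 ± 0.05). Without D370Y library 3 and without control library 3 the count was 3. With the length trend removed it was 1, Dnmt1 and Pole being among those lost, and with length and GC trends removed it was 8. Among cyclins, their kinases and inhibitors, the repressor E2f8 (from 145 ± 6.73 to 109.7 ± 5.47 CPM, -0.40 ± 0.05) and the cyclin Ccnd3, which drives dark zone divisions (from 230.4 ± 30.8 to 165 ± 15.6 CPM, -0.48 ± 0.10), fell in all 10 leave-one-out fits. The inhibitor Cdkn1b, or p27, stood at 10.6, 10.6, 13.3, 11.3 and 11.02 CPM in D370Y libraries 1 to 5 and at 8.05, 8.23, 8.901, 7.298 and 6.69 CPM in control libraries 1 to 5. It was the member of that list that rose, without overlap (0.48 ± 0.09, adjusted p = 0.00831), and 3 rose after length and GC removal.

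Chromatin regulators mutated in lymphoma fell in 10 of 42 cases (median -0.16), after length removal 4 fell and 3 rose, and after length and GC removal 9 fell and 3 rose. Their transcripts are long, with a median of 6675.5 bases against 3020 for genes not called. The remodeller subunits Smarca4 (from 727 ± 27.9 to 568 ± 54.4 CPM, -0.36 ± 0.07) and Smarcc1 (from 279 ± 16.7 to 218 ± 11.2 CPM, -0.35 ± 0.06) fell in all 10 leave-one-out fits. The acetyltransferase Ep300 (-0.39 ± 0.09) and the methyltransferase Mll1 (-0.43 ± 0.11) were not called without D370Y library 3 or without control library 3 (adjusted p = 0.051 to 0.0582) and without D370Y library 1, 2, 3 or 5 or without control library 2 or 3 (adjusted p = 0.058 to 0.0918). Without D370Y library 3 or control library 3, 5 or 4 members were lower.

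Cell shape, polarity and actin genes gave 11 falls and 3 rises among 59 tested genes, and 14 and 6 after length and GC removal. Of the falls 9 held in all 10 leave-one-out fits. Emp2, Celsr1, Vopp1 and Basp1 led them, followed by the CDC42 effector Cdc42ep3, which stood at 13.8, 14.1, 8.78, 13.7 and 14.5 CPM in D370Y libraries 1 to 5 and at 20.8, 20.97, 21.3, 18.6 and 21.1 CPM in control libraries 1 to 5. D370Y library 3 was the lowest, and no D370Y library reached a control (log2 fold change -0.64 ± 0.12 SE, adjusted p = 0.00611). Arhgap24 rose and was called in 4 of the 10 leave-one-out fits. The other rises were in proteins that link the membrane to actin. Radixin, from Rdx, went from 20.1 ± 4.88 to 32.9 ± 3.42 CPM (0.71 ± 0.14, adjusted p = 0.00984), and Marcks from 5.8004 ± 0.412 to 9.98 ± 1.05 CPM (0.69 ± 0.09, adjusted p = 0.00125). Of 11 tested genes of the list of ephrins, Eph receptors, plexins, semaphorins and related proteins, Sema4b rose (from 38.03 ± 2.99 to 53.1 ± 7.98 CPM, 0.46 ± 0.09), and Ephb2, Plxnb2 and the vesicle priming factor Unc13a (from 7.37 ± 0.9397 to 3.85 ± 0.775 CPM, -0.79 ± 0.12) fell. After length and GC removal 3 of them rose and 3 fell.

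Genes of lipid uptake and efflux, many of them targets of the oxysterol-sensing LXR receptors, rose in 7 and fell in 2 of 35 cases. After Cd36 the largest rise was in Pltp, the phospholipid transfer protein, which stood at 10.1, 11.3, 18.99, 28.2 and 10.9 CPM in D370Y libraries 1 to 5 and at 4.92, 7.56, 6.596, 6.56 and 7.49 CPM in control libraries 1 to 5. D370Y libraries 3 and 4 were the highest (log2 fold change 1.05 ± 0.24 SE, adjusted p = 0.0179), and the call was lost without D370Y library 3 (adjusted p = 0.0506). The cholesterol exporter Abcg1 (from 7.59 ± 1.56 to 13.5 ± 3.89 CPM, 0.74 ± 0.18) was not called without D370Y library 2 or 5 or without control library 3 or 4 (adjusted p = 0.0549 to 0.0622), the lysosomal cholesterol carrier Npc2 (0.39 ± 0.10) without D370Y library 2, 3 or 4 or without control library 3 (adjusted p = 0.0567 to 0.088), and Mylip, which degrades the LDL receptor (0.31 ± 0.07), without D370Y library 2 or 5 or without control library 2 or 4 (adjusted p = 0.0514 to 0.0596). Cd36 was the rise in this list that held in all 10 fits, and without D370Y library 3 or control library 3 there were 4 or 3 rises. Both falls held. The oxysterol-binding protein Osbpl3 stood at 38.6, 68.95, 39.8, 40.6 and 38.5 CPM in D370Y libraries 1 to 5 and at 75.6, 87.8, 94.8, 88.7 and 103 CPM in control libraries 1 to 5. D370Y library 2 was far above the other 4 and below the lowest control (-1.01 ± 0.15, adjusted p = 0.00228). The lipid transporter Abca3 went from 277 ± 16.9 to 209.6 ± 18.98 CPM (-0.40 ± 0.07, adjusted p = 0.00403).

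Of 22 tested cholesterol synthesis genes 0 were called in either direction (limma; 9 lower and 0 higher at an unadjusted p below 0.05, 0 lower by edgeR and 1 by DESeq2), while their median was -0.16. In fatty acid metabolism 2 of 32 genes fell (6.25%), near the 5.29% of all genes. The desaturase Fads2 stood at 13.3, 6.703, 7.46, 5.65 and 11.4 CPM in D370Y libraries 1 to 5 and at 15.9, 21.2, 17.7, 18.97 and 19.4 CPM in control libraries 1 to 5. All D370Y libraries were below the controls (log2 fold change -1.04 ± 0.18 SE, adjusted p = 0.00604), and the call held in all 10 leave-one-out fits. Among nuclear receptor and retinoid genes Dhrs3 was the fall that held.

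In the list of Fc receptors, Fc receptor-like and related genes the calls were rises alone. Of its 17 tested members 5 were higher and 0 lower (limma, with 9 and 0 at an unadjusted p below 0.05, 5 and 0 by edgeR, 8 and 0 by DESeq2). The median was 0.19. Fcrl5, an inhibitory Fc receptor-like protein of atypical memory B cells, stood at 21.7, 26.3, 44.3, 26.8 and 25.8 CPM in D370Y libraries 1 to 5 and at 15.6, 18.3, 13.1, 14.8 and 13.5 CPM in control libraries 1 to 5. D370Y library 3 was highest and the groups were separate (log2 fold change 0.87 ± 0.16 SE, adjusted p = 0.00653). The inhibitory receptors Lilrb3 (from 6.23 ± 1.09 to 11.1 ± 3.05 CPM, 0.72 ± 0.16) and Cd72 (from 220.1 ± 11.98 to 303 ± 30.6 CPM, 0.45 ± 0.07) and the complement regulator Cd55 also held in all 10 leave-one-out fits. The Fc receptor gene Fcgrt rose too, and stayed called in 5 of the 10. In the atypical memory, S100 and annexin list, S100a10 rose (from 12.6 ± 2.28 to 25.7 ± 8.06 CPM, 0.93 ± 0.18) beside Plac8, Zeb2, Itgam and Fcrl5, while its partner annexin Anxa2 fell (from 571 ± 21.5 to 452 ± 31.1 CPM, -0.34 ± 0.06). After length and GC removal 4 members of that list fell.

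Of 61 B cell receptor signalling genes 4 were higher and 5 lower, where 2.77% and 5.29% of all genes were. After length and GC removal 11 were higher and 4 lower, where 552 and 628 of all 10347 genes were. The adaptor Grap2 stood at 24.2, 25.9, 43.7, 27.6 and 29.6 CPM in D370Y libraries 1 to 5 and at 13.2, 17.7, 13.4, 14.8 and 13.6 CPM in control libraries 1 to 5, with D370Y library 3 the highest and no overlap (0.98 ± 0.14, adjusted p = 0.0021). The phosphatase Ptpn22, which restrains antigen receptor signalling, stood at 28.2, 51.2, 58.6, 44.02 and 46.9 CPM in D370Y libraries 1 to 5 and at 29.97, 22.9, 20.2, 22.9 and 19.9 CPM in control libraries 1 to 5. D370Y library 1 lay within the control range and the other 4 above it (log2 fold change 0.93 ± 0.17 SE, adjusted p = 0.00643). Among the falls, the inositol phosphatase Inpp5d, or SHIP1, stood at 314, 315, 331, 372 and 334 CPM in D370Y libraries 1 to 5 and at 407, 449.96, 465, 432 and 462 CPM in control libraries 1 to 5, without overlap (-0.41 ± 0.06, adjusted p = 0.00211). The inositol kinase Itpkb went from 65.1 ± 5.59 to 45.7 ± 4.44 CPM (-0.50 ± 0.08).

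Cytokine receptors and their signalling gave 4 rises among 44 genes, and 8 rises and 1 fall after length and GC removal. The interleukin-10 receptor Il10ra (from 43.2 ± 5.31 to 69.9 ± 16.6 CPM, 0.66 ± 0.14) and the transcription factor Stat4 (from 17.2 ± 2.71 to 27.8 ± 4.34 CPM, 0.66 ± 0.12) held in all 10 leave-one-out fits, while Il10rb and the interferon receptor subunit Ifnar2 were not called without D370Y library 2 or 3 or without control library 2 or 3 (adjusted p = 0.0512 to 0.0719) and without D370Y library 2, 4 or 5 or without control library 2 or 3 (adjusted p = 0.0543 to 0.0746). Of 35 costimulation, CD40, BAFF receptor and checkpoint genes 4 rose and 3 fell. The receptor TACI, from Tnfrsf13b (from 11.2 ± 1.68 to 16.6 ± 1.88 CPM, 0.53 ± 0.11), and PD-L1, from Cd274 (from 13.2 ± 1.6998 to 17.7 ± 1.17 CPM, 0.40 ± 0.09), rose in all 10 fits, and the ICOS ligand Icosl fell (from 109.9 ± 4.5999 to 91.1 ± 5.0004 CPM, -0.27 ± 0.06). Among Toll-like receptors and their partners 3 of 23 rose and 1 fell, and 6 rose and 1 fell after length and GC removal. Themis2 (from 63.4 ± 3.94 to 85.99 ± 13.5 CPM, 0.42 ± 0.09) and the RP105 partner Ly86 (from 153 ± 9.23 to 194 ± 18.1 CPM, 0.34 ± 0.07) held in all 10 fits. The kinase gene Irak2 (0.32 ± 0.09) stayed called in 1 of the 10, and the adaptor Tirap, which fell (-0.26 ± 0.06), in 7. In the plasma cell list 5 of 30 rose and the unfolded protein response gene Herpud1 fell (from 242 ± 21.3 to 192 ± 14.1 CPM, -0.33 ± 0.07); 2 of the 5 rises and Herpud1 held in all 10 fits.

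Genes of the interferon response and interferon-inducible GTPases rose in 8 of 60 cases and fell in 1, with a median of 0.09, and 11 rose after length and GC removal. Iigp1, Gbp7, Pml and Gbp6 held in all 10 leave-one-out fits. The guanylate-binding protein Gbp7 went from 2.38 ± 0.637 to 4.47 ± 0.708 CPM (0.71 ± 0.14), Gbp6 from 4.11 ± 0.553 to 6.23 ± 0.516 CPM (0.50 ± 0.10) and the nuclear body scaffold Pml from 37.99 ± 6.71 to 62.2 ± 13.5 CPM (0.69 ± 0.14). Gbp2 (from 25.2 ± 2.702 to 34.6 ± 4.35 CPM, 0.44 ± 0.10) and the immunity-related GTPase Irgm1 (from 27.3 ± 3.01 to 40.5 ± 10.6 CPM, 0.53 ± 0.14) overlapped between the groups and were not called without control library 3 (adjusted p = 0.0552) and without D370Y library 1 or 2 or without control library 3 or 4 (adjusted p = 0.0504 to 0.0983). Usp18, which dampens interferon receptor signalling, fell (-0.59 ± 0.14), a call lost without D370Y library 2 or without control library 3 or 4 (adjusted p = 0.0564 to 0.0774). Without control library 3 the rises numbered 4.

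The GIMAP GTPases, a family of lymphocyte survival proteins encoded side by side on chromosome 6 (48647234 to 48770851, mm10), rose in most tested members. Of 8 tested members 6 were higher, with a median of 0.45, and 5 held in all 10 leave-one-out fits. Gimap3 stood at 85.3, 97.4, 133, 144 and 90.7 CPM in D370Y libraries 1 to 5 and at 58.96, 68.9, 57.9, 61.1 and 78.7 CPM in control libraries 1 to 5. D370Y libraries 3 and 4 were highest, and control library 5 came closest to the D370Y range (log2 fold change 0.73 ± 0.14 SE, adjusted p = 0.00969). Gimap4 went from 176 ± 19.96 to 262 ± 35.1 CPM (0.57 ± 0.10), Gimap8 from 51.9 ± 4.98 to 72.9 ± 4.53 CPM (0.49 ± 0.07), Gimap6 from 203 ± 14.7 to 274 ± 19.9 CPM (0.43 ± 0.07) and Gimap1 from 91.4 ± 7.24 to 118 ± 9.28 CPM (0.36 ± 0.07), each without overlap. Gimap5 (0.36 ± 0.08) was not called without control library 3 (adjusted p = 0.053).

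To show the sequence context of genes that moved, promoter windows of 250 bases before to 50 bases after a gene's start were taken from RefSeq (GRCm38.p6, the assembly that mm10 names). Of the tested genes 8372 (80.9%) had a window. A window was there for 77.7% of the higher and 81.5% of the lower genes. Motif shares of called genes and the rest were counted and not tested. The windows below were chosen from the genes described above for their change and role. Capitals mark every match, on either strand, to TTCCNNGAA, which covers the core of the BCL6 recognition sequence and is present in 5.63% of tested genes with a window, or, for Gbp2 and Irgm1, to GAAANNGAAA, the core of interferon response elements, present in 3.79%. Among higher, lower and not called genes the shares were 6.28%, 4.48% and 5.67% for the first pattern. For the second pattern they were 9.42%, 3.81% and 3.62%. A match describes letters in a window, not a bound site.
Gimap8 (chr6:48647111-48647410, plus strand): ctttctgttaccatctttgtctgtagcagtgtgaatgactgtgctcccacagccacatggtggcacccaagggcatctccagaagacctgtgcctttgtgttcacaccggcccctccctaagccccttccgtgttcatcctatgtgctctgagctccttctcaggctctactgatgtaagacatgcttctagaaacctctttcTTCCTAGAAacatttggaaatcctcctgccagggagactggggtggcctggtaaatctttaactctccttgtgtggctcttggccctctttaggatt
Bcl6 (chr16:23981234-23981533, minus strand): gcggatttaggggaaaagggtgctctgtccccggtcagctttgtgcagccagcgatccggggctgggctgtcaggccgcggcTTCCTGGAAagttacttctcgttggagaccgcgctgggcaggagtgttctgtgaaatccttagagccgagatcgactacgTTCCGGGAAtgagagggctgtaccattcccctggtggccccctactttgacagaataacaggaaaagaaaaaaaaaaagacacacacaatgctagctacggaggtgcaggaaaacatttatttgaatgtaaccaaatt
Gbp2 (chr3:142620413-142620712, plus strand): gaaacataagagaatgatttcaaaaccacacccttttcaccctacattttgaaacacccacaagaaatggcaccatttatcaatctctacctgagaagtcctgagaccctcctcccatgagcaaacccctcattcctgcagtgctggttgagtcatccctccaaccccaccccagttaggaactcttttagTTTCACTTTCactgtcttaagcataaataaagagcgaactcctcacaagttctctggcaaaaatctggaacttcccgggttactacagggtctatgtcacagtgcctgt
Irgm1 (chr11:48871371-48871670, minus strand): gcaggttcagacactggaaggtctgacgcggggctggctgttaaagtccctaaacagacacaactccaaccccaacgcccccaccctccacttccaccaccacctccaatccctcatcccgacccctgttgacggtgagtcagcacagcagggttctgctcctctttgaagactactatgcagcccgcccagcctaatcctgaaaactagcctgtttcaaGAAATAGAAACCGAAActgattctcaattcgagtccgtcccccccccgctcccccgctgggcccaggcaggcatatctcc
Cd36 (chr5:17835847-17836146, minus strand): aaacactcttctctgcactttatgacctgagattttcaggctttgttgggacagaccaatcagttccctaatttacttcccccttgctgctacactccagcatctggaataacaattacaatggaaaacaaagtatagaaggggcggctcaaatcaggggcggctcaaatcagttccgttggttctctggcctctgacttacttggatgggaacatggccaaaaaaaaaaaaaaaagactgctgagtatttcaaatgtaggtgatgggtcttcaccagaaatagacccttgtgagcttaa
Emp2 (chr16:10313919-10314218, minus strand): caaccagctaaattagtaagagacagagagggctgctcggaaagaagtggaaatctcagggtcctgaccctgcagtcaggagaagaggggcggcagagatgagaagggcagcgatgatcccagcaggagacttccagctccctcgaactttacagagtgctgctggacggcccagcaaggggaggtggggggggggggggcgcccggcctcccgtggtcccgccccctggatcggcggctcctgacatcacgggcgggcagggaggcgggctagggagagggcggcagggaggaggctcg
The second start of Gimap8, a gene that rose, held TTCCTAGAA starting 47 bases before the start. The second start of Bcl6, whose whole-gene level fell, held 2 matches. The Gbp2 window held TTTCACTTTC, a match on the other strand, starting 59 bases before the start, and the Irgm1 window held 2 matches. The first-start windows of Gimap8 and Bcl6, not shown, held no match, and neither did the Pml window to the second pattern. The windows of Cd36, which rose, and Emp2, which fell, held no match to the first pattern.

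Genes of translation and respiration had mostly positive fold changes of small size. Of 74 cytosolic ribosomal protein genes 7 rose and 0 fell (limma; 47 and 0 at an unadjusted p below 0.05, 8 higher by edgeR and 22 by DESeq2). All 74 had a positive fold change. Their median was 0.24. With the length trend removed 2 were called higher, and with length and GC trends removed 13, at a median of 0.15. Rpl7 went from 734 ± 28.8 to 884 ± 53.8 CPM (0.27 ± 0.05), and with Rpl4 it made up the rises that held in all 10 leave-one-out fits. Without D370Y library 3 or control library 3 the rises numbered 3 or 2. Of 72 nuclear genes of oxidative phosphorylation 0 were called (limma; 29 higher and 0 lower at an unadjusted p below 0.05, 0 higher by edgeR and 12 by DESeq2), and 70 were positive, with a median of 0.14. After length and GC removal 2 were called higher, at a median of 0.05. Of 49 MYC and ribosome biogenesis genes 0 were called as well (limma; 1 higher and 2 lower at an unadjusted p below 0.05, 0 and 0 by edgeR, 0 and 1 by DESeq2).

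Enzymes that shape surface glycans gave 4 rises and 1 fall among 53 genes, and 8 and 1 after length and GC removal. The share called, 9.43%, was near the 8.06% of all genes. The sialyltransferase St3gal6 stood at 36.5, 40.3, 42.6, 45.3 and 33.3 CPM in D370Y libraries 1 to 5 and at 33.6, 25.5, 17.9, 20.1 and 16.5 CPM in control libraries 1 to 5. Control library 1 lay just inside the D370Y range and the other 4 controls well below it (log2 fold change 0.81 ± 0.16 SE, adjusted p = 0.0101). Cmah, which makes the sialic acid Neu5Gc, a form that mouse germinal center B cells lose, went from 46.7 ± 5.73 to 70.2 ± 10.5 CPM (0.57 ± 0.10, adjusted p = 0.0062), and the mannosidase Man1a from 90.1 ± 9.23 to 129.8 ± 17.1 CPM (0.52 ± 0.09). These 3 held in all 10 leave-one-out fits. Beside Cd38, the ectoenzyme Entpd1, or CD39, rose (from 2.78 ± 0.503 to 4.702 ± 0.787 CPM, 0.60 ± 0.12).

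In the cyclic nucleotide list 2 of 22 genes rose and 3 fell, and 3 and 5 did after length and GC removal. Pde2a, a phosphodiesterase that breaks down cyclic AMP and cyclic GMP, stood at 62.1, 49.6, 50.5, 64.7 and 64.2 CPM in D370Y libraries 1 to 5 and at 106, 77.8, 119, 97.2 and 80.03 CPM in control libraries 1 to 5. The highest D370Y library, 4, was below the lowest control, 2 (log2 fold change -0.70 ± 0.12 SE, adjusted p = 0.00535). The cyclic AMP-activated exchange factor Rapgef3 went from 20.9 ± 2.23 to 13.5 ± 2.36 CPM (-0.60 ± 0.11). Of 42 transporters 2 rose and 4 fell (2 fell after length and GC removal), led by Slc15a2, and the nucleoside transporter Slc29a1 went from 56.3 ± 4.48 to 45.04 ± 2.99 CPM (-0.31 ± 0.07). In the RAS, MAP kinase and immediate early list, 3 of 49 rose and 4 fell (6 fell after length and GC removal). That is 14.3% called, against 8.06% of all genes. The kinase Map3k1 went from 42.7 ± 5.12 to 62.1 ± 5.91 CPM (0.53 ± 0.09, adjusted p = 0.00406) and held in all 10 leave-one-out fits. The early phosphatase gene Dusp1 stood at 34.01, 29.7, 30.1, 43.99 and 40.97 CPM in D370Y libraries 1 to 5 and at 64.1, 33.5, 69.002, 77.7 and 73.1 CPM in control libraries 1 to 5. Control library 2 lay inside the D370Y range (-0.77 ± 0.20), and the call was lost without D370Y library 1, 2 or 3 or without control library 3, 4 or 5 (adjusted p = 0.0533 to 0.0946).

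Other lists held few calls, and most of those were lost when 1 library was left out. Shares called went from 3.03% for the p53 list to 9.09% for MHC class II, where 8.06% of all genes were called. In MHC class II presentation 2 of 22 tested genes rose, the lysosomal proteases Ctsb, called in 2 of the 10 leave-one-out fits, and Ctss, called in 9, and 0 fell. Among 35 genes of the NF-kB pathway and its targets Tnf was higher (called in 9 of 10) and its brake Tnfaip3 lower (5 of 10). Among 31 genes of the BCL2 family and cell death Bcl2 was higher and the caspase gene Casp9 lower (2 of 10). The single calls were Trp53, lower, among 33 genes of p53 and the DNA damage checkpoint (2 of 10), the prolyl hydroxylase Egln3, lower, among 29 of glycolysis and lactate transport (2 of 10), and the glycosyltransferase Lfng, higher, among 29 of Notch, Wnt and TGF-beta (3 of 10). After length and GC removal the rises numbered 3 for NF-kB, 1 for p53, 2 for the BCL2 family and 3 for Notch, Wnt and TGF-beta, and the falls 2, 2, 1 and 1. For fatty acid metabolism that removal gave 1 rise and 1 fall, for nuclear receptors 1 and 2, and for adhesion 9 and 1.

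Settings other than leaving out a library also ended the calls of genes named above. Without a filter on low values the calls of Tbl1xr1, Bcl6, Rcor1, Hdac7, Foxo1, Gpr132, Ccr7, Rgs1, Gna13, Pecam1, Palm, Abcg1, Npc2, Irak2, Ctsb, Irgm1, Usp18, H2afx, Trp53, Casp9, Egln3, Mll1, Dusp1 and Eps8l1 were lost. With all 28 libraries in 1 fit, those of Rpl4, Rpl7, Rpl22l1, Ly6c2, Vcam1, C1qc, Il10rb, Icosl, Ctsb, Ctss, Usp18, Tnfaip3, H2afx, 8430410A17Rik, Casp9, Anxa2, Mll1, Ep300, Lfng and Eps8l1 were lost. With the length trend removed the lost calls were Bcl6, Ephb2, Rpl7, Rpl22l1, Dnmt1, Pole, Hdac7, Foxo1, Plxnb2, Gna13, Ly86, Tirap, Ctss, Tnfaip3, Supt6h and Casp9, and with length and GC trends removed they were Foxo1, Supt6h, Pole and Rpl22l1. EdgeR's test did not call Bcl6, Hdac7, H2afx, Trp53, Casp9, C1qc and Eps8l1, CPM recomputed over listed genes lost Bcl6, Hdac7, Gna13, H2afx, Trp53 and Casp9, and TMM factors lost Hdac7, Trp53 and Casp9. Library weights ended the calls of Gpr132, Ccr7, Rgs1, Irgm1, Dusp1 and Lfng. Hdac7 was also lost with pseudocounts of 0.25 and 4 and in the fit over autosomal genes alone, and Egln3 with a pseudocount of 4.

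**Figure D3:**
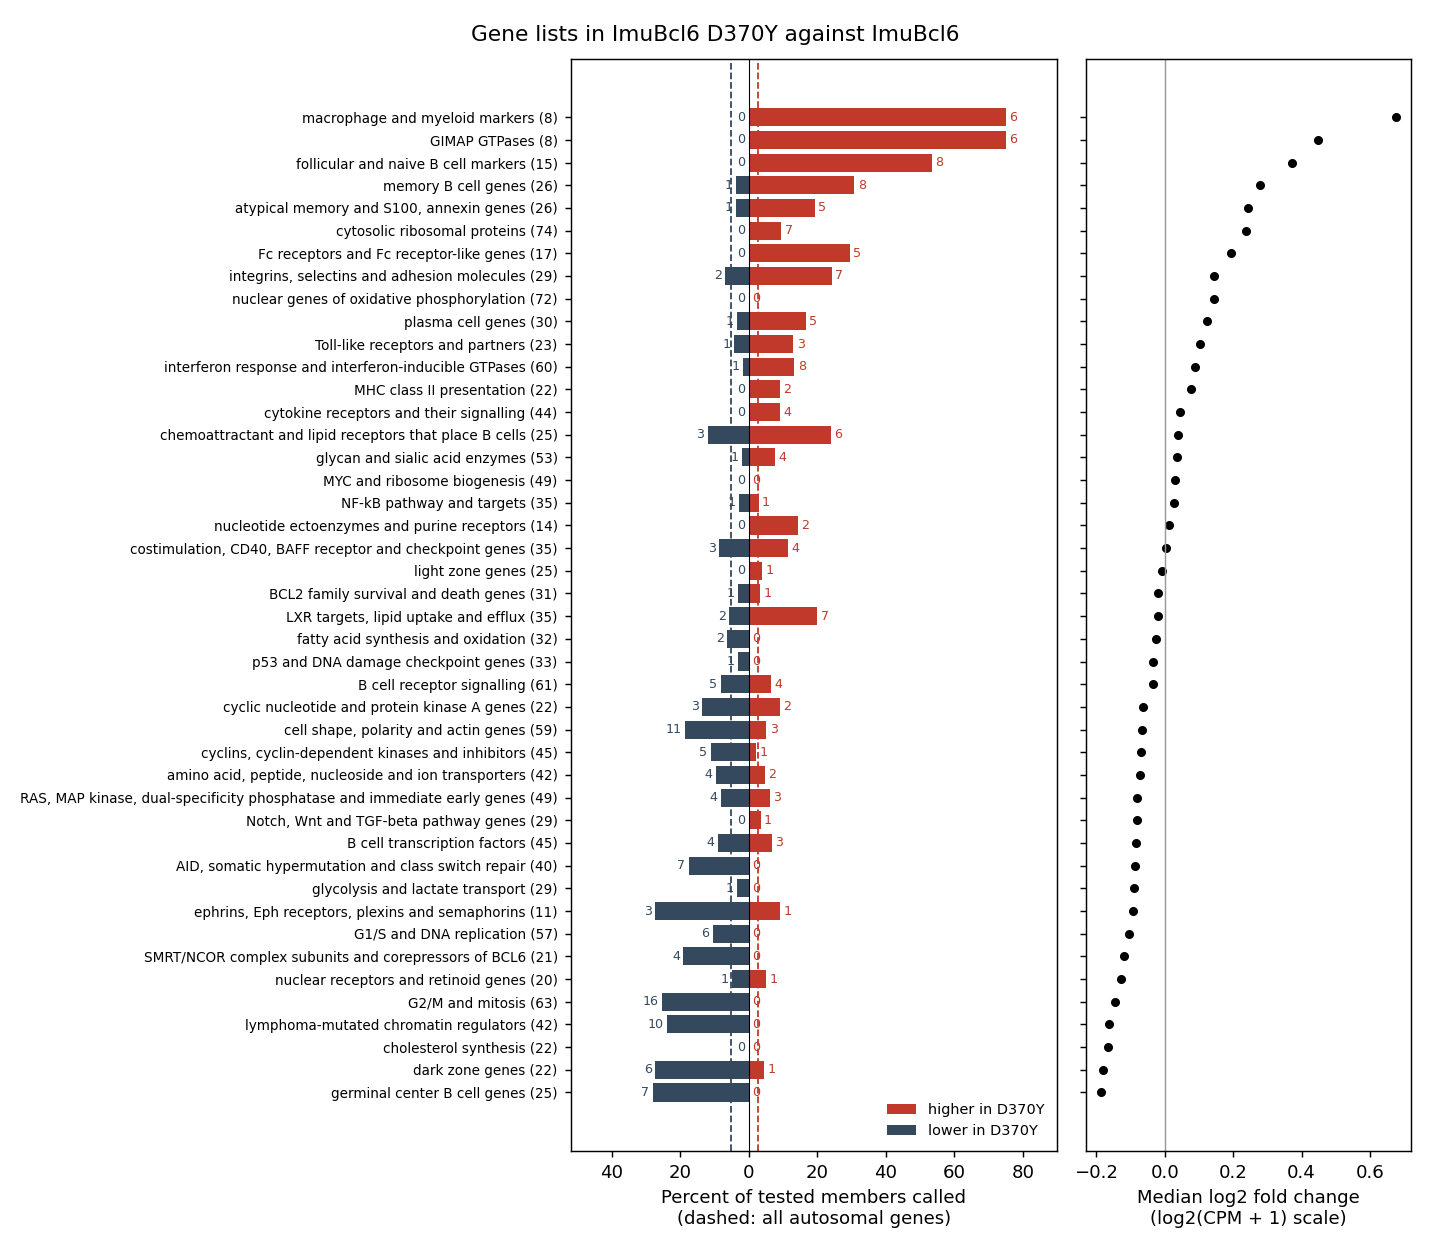
Left, the percent of tested members of each gene list that were called higher (red) or lower (blue) with D370Y, with the number of members beside each bar, the number tested in brackets and the shares of all autosomal genes, 2.77% and 5.29%, as dashed lines. Right, the median log2 fold change of each list, from -0.19 for germinal center genes to 0.68 for the 8 tested myeloid markers.

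Markers of other cell types differed between the groups in part. The 5 B cell identity genes, among them Ms4a1, Cd79a, Cd79b and Pax5, had a summed level of 4465 to 4877 CPM with D370Y and 4277 to 4714 CPM in the controls, and 0 of the 5 were called (limma, 0 at an unadjusted p below 0.05, 0 by edgeR and by DESeq2). Of 16 macrophage and myeloid markers 8 passed the filter and 6 of these rose: Emr1, Itgam, Lyz2, Ly6c2, Vcam1 and C1qc. Lyz2 went from 1.91 ± 0.554 to 3.92 ± 0.948 CPM and the complement subunit C1qc from 0.594 ± 0.372 to 1.39 ± 0.235 CPM. C1qc passed the filter through the D370Y libraries and was not called without D370Y library 1, 3 or 5 or without control library 2 or 3 (adjusted p = 0.0555 to 0.0908). The 16 summed to 40.8 to 65.2 CPM with D370Y, with D370Y library 3 the highest, and to 22.7 to 28.4 CPM in the controls, so the groups did not overlap. The neutrophil genes S100a8 and S100a9 were listed at 0 in 6 and 7 of the 10 libraries and stayed below 0.13 CPM in all. Since Emr1, Itgam and Plac8 rose with this list, the part of myeloid cells in their change was not tested.

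T cell markers summed to 380 to 463 CPM with D370Y and 344 to 452 CPM in the controls, mostly from Lck and Cd2. Cd3g stood at 3.09, 9.12, 7.69, 6.57 and 3.32 CPM in D370Y libraries 1 to 5 and at 0.332, 1.68, 1.57, 2.09 and 1.72 CPM in control libraries 1 to 5, without overlap (log2 fold change 1.45 ± 0.28 SE, adjusted p = 0.00927), while Cd3e stayed below 0.25 CPM in all 10 libraries. Cd3d, which did not pass the filter, ranged from 0.461 to 1.72 CPM with D370Y and from 0.257 to 0.516 CPM in the controls, with overlap. Of 4 tested T cell markers Cd3g and Cd2 rose and 0 fell. Lck went the other way without being called (log2 fold change -0.26), with overlap between the groups. It was the 1 member lower at an unadjusted p below 0.05 (limma). Dendritic cell markers summed to 43.9 to 49.6 CPM with D370Y and 41.8 to 55.1 CPM in the controls, and natural killer cell markers stayed at or below 1.03 CPM in every library. Stroma and endothelium markers summed to 60.4 to 94.5 CPM with D370Y and 45.6 to 60.6 CPM in the controls, nearly all of it from Pecam1, which B cells also express. Pecam1 went from 50.9 ± 6.05 to 69.1 ± 13.4 CPM (0.42 ± 0.12), and its call was lost without D370Y library 1, 3, 4 or 5 or without control library 2, 3, 4 or 5 (adjusted p = 0.0543 to 0.117). The stromal genes Pdpn and Tek were listed at 0 in all 10 libraries.

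**Figure D4:**
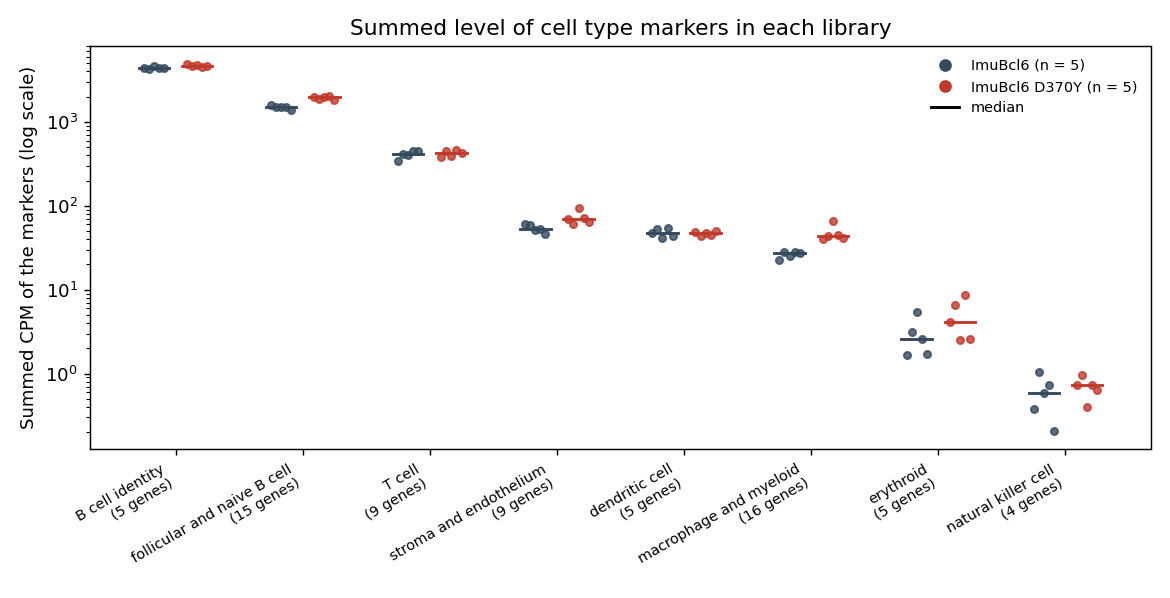
Summed CPM of 8 lists of cell type markers on a log axis in each ImuBcl6 (blue) and ImuBcl6 D370Y (red) library, with the group median as a short line. The groups are separate for the naive B cell markers (1379 to 1592 against 1822 to 2018 CPM) and the myeloid markers (22.7 to 28.4 against 40.8 to 65.2 CPM), and overlap for B cell, T cell, dendritic cell and natural killer cell markers.

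The same D370Y allele without ImuBcl6, and a Tbl1xr1 KO group, give values from other libraries for the genes called here. D370Y against WT (5 and 3 libraries, both with Cg1Cre) called 3.46% of 10168 autosomal genes, and KO against its Cre control (5 each) called 1.42% of 10106. None of these libraries is shared with the ImuBcl6 comparison. Of the 287 higher genes, 282 were tested in D370Y against WT, 251 had a fold change above 0 and 92 were called higher, where 2.56% of all genes were. Of the 547 lower genes, 541 were tested, 398 had a fold change below 0 and 21 were called lower, where 0.905% were. In the KO comparison 213 of 276 tested higher genes were above 0 and 35 were called higher (0.495% of all genes). There 490 of 528 lower genes were below 0 and 45 were called lower (0.930%). The median over all autosomal genes was -0.06 in the KO comparison and -0.01 in D370Y against WT. Most genes thus lay below 0 in the KO comparison, and the shares of all genes on each side of 0 are not given here. Sex patterns were arranged the other way round in D370Y against WT, with Xist in all D370Y libraries. Genes called higher in all 3 comparisons numbered 23 and genes called lower 9.

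Those 23 include Cd36, Zeb2, Bcl2, Gpr183, S1pr1, Gimap3, Ptpn22, Grap2, Lilrb3, Cmah, St3gal6, Map3k1 and Abcg1. Cd36 had a fold change of 1.02 ± 0.24 (adjusted p = 0.0402) without ImuBcl6 and of 1.46 ± 0.15 (adjusted p = 4.77e-05) in the KO. For Zeb2 the values were 0.99 ± 0.10 (adjusted p = 0.00026) and 1.14 ± 0.12 (adjusted p = 8.42e-05). For S1pr1 they were 0.87 ± 0.08 (adjusted p = 5.31e-05) and 0.65 ± 0.11 (adjusted p = 0.00302). The 9 lower genes include Pde2a, Gcet2, Anxa2 and the membrane-shaping protein Palm. Pde2a had -0.86 ± 0.10 (adjusted p = 0.000416) without ImuBcl6 and -1.12 ± 0.15 (adjusted p = 0.000394) in the KO. Plac8 gave 1.40 ± 0.11 (adjusted p = 3.30e-05) without ImuBcl6 and 0.06 ± 0.14 (adjusted p = 0.929) in the KO. Of the 6 myeloid markers that rose, 0 were called in the KO, and Emr1 there had 0.13 ± 0.17 (adjusted p = 0.896).

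Some genes changed with D370Y in ImuBcl6 cells by another amount than in cells without the allele. The test of that difference, over the 18 libraries of the 4 groups, called 55 of 10695 autosomal genes (0.514%), 50 (0.468%) with a more negative and 5 (0.0468%) with a more positive effect in ImuBcl6 cells. Of the 55, 44 had fallen and 2 had risen in ImuBcl6 cells. The count ran from 16 without WT library 3 to 90 without ImuBcl6 control library 1, so most single calls of this test were not stable. Since the sex patterns are opposite in the 2 backgrounds, a difference between backgrounds and an effect of sex cannot be told apart in this test. Emp2 was called in every one of the 18 fits that left out 1 library. Its fold change was -2.31 ± 0.20 in ImuBcl6 cells and -0.13 ± 0.22 (adjusted p = 0.787) without the allele, a difference of -2.18 ± 0.32, adjusted p = 0.000758, and -1.75 ± 0.16 (adjusted p = 3.40e-05) in the KO. Its levels were 6.95 ± 2.48 CPM in D370Y and 7.37 ± 0.536 CPM in WT cells. In the KO and Cre control libraries the difference of the Y-linked from the Xist pattern was 0.14 ± 0.15 for Emp2 (limma adjusted p = 0.594). Celsr1 showed the same order, with -0.22 ± 0.15 (adjusted p = 0.473) without ImuBcl6 and -1.26 ± 0.13 (adjusted p = 5.89e-05) in the KO, and its difference (-1.23 ± 0.25, adjusted p = 0.0259) was called in 12 of the 18 fits, with adjusted p up to 0.119. The call was lost without library 1 or 4 of D370Y without ImuBcl6, ImuBcl6 control library 2 or 3, or WT library 1 or 3.

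Capn11, a calpain protease gene, was listed at 0 CPM in each of the 5 ImuBcl6 D370Y libraries, against 2.33 to 4.47 CPM in their controls, where 3 reads, the limit that a count of 0 allows, correspond to 0.0640 to 0.0772 CPM. It passed the filter through the controls alone. Without ImuBcl6 the direction was opposite, with 0.934 to 1.803 CPM under D370Y against 0 to 0.0430 CPM for WT. It was 1 of 7 genes called in opposite directions in the 2 D370Y comparisons, with Efcab7, Ccdc21, Eps8l1, 1700048O20Rik, Zfp365 and Nfic. Since the sex patterns of the 2 comparisons are opposite too, each of these 7 genes had the same direction by sex pattern in both, and the effects of D370Y, ImuBcl6 and sex on them cannot be told apart.

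**Figure D5:**
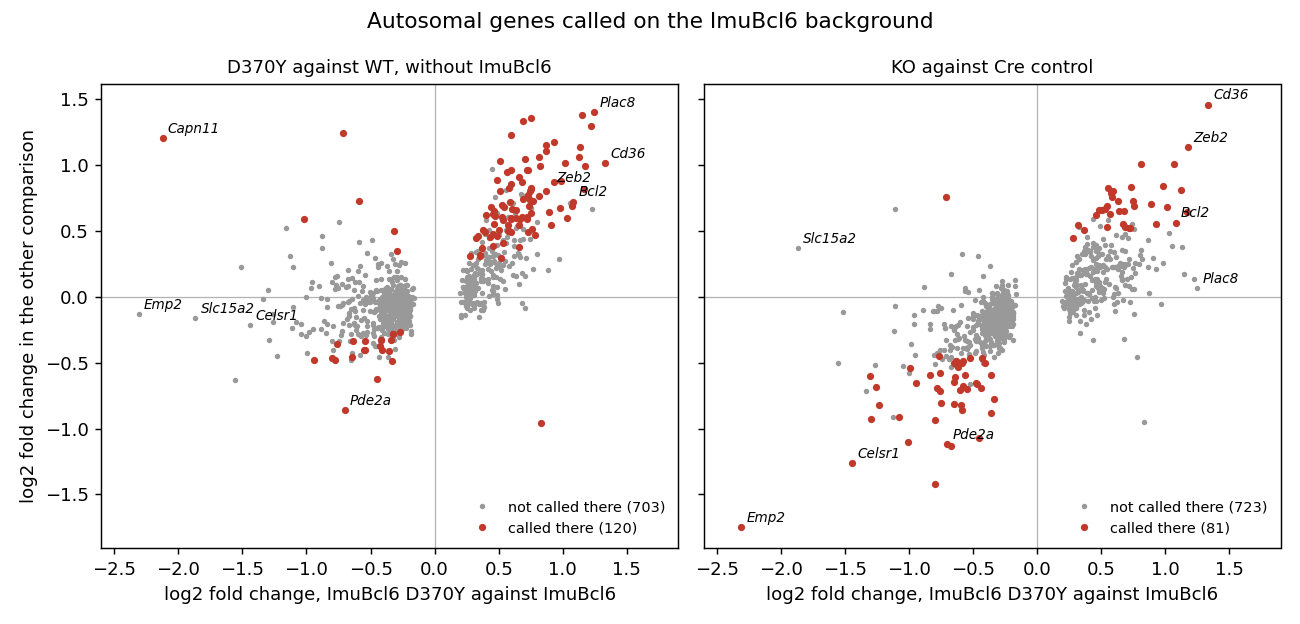
Fold changes of the genes called in ImuBcl6 D370Y against ImuBcl6 (horizontal) against those of D370Y against WT (left) and of KO against Cre control (right), on the log2(CPM + 1) scale, with genes called in the other comparison in red. Emp2 lies near 0 on the left and at -1.75 on the right, and the legend counts 120 and 81 called genes.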

How the data were processed

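The deposited files hold, per library and gene symbol, CPM, which the authors scaled by a denominator of their own, with STAR and mm10 named in the submitters' processing notes. The counting tool, annotation and library kit are not given in the sources used here. Whole reads were recovered from the authors' CPM for 100% of values within 0.01 read. Symbols were matched to GENCODE M21 (22920 of 23382, 98.0%, 1790 of them by an older symbol) for chromosome, length and GC content.

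The main test was limma 3.58.1 (R 4.3.3, trend and robust) on log2(CPM + 1) of 5 against 5 libraries, fitted over all 10784 genes with at least 1 CPM in 5 or more libraries, with Benjamini-Hochberg adjustment over all of them. The 335 X- and Y-linked genes in that fit, and 102 without a matched chromosome, are not reported. D370Y against WT, KO against Cre control, the difference between backgrounds (18 libraries) and the sex pattern fit used the same test. edgeR 4.0.16 and DESeq2 1.42.0 on the recovered reads, other filters, pseudocounts (0.25 and 4), scalings, weights, the replicate block and leaving out each library were alternatives. Removal of the trends on transcript length and GC content (a loess per library) and leaving out libraries in the test of the difference between backgrounds were added after seeing the data.

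Genes were named by rule: Tbl1xr1 and Bcl6; the 10 largest called rises and falls at 5 CPM or more in the higher group; the 5 largest in CPM and the 3 with the lowest adjusted p per direction; up to 6 called members per direction of 50 gene lists; markers of other cells; and up to 5 genes per direction for the difference between backgrounds. Genes called in opposite directions and those called in all 3 comparisons were named after their values were seen. The comparison, the members and the gene lists were chosen with earlier results of these data known. The fits were tested on simulated data. The floor of 3 reads covers counting error only. Results for a few genes that the naming rule covers are not reported here.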

Additional observations from a re-analysis of the deposited data

Results flagged for a closer look

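Among 324 groups of 5 libraries (162 named genes in both genotypes), 18 (5.56%) held 1 library far from the other 4 by Dixon's ratio, where chance gives about 1 in 20. Of the 18, 13 were in D370Y and 5 in control libraries, and 8 were D370Y library 3. That library was the highest of its group for Plac8 (258 CPM), Atxn1 (10.8 CPM), Fcrl5 (44.3 CPM), Grap2 (43.7 CPM), Tnf (24.7 CPM) and Cdkn1b (13.3 CPM), and the lowest for Foxo1 (140 CPM) and Cdc42ep3 (8.78 CPM). The other D370Y libraries that stood apart were library 1 for Slc15a2 (3.76 CPM, highest), library 2 for Osbpl3 (69.0 CPM, highest), library 4 for Ephb2 (5.36 CPM) and Abca3 (242 CPM), both highest, and library 5 for Ccr7 (6.10 CPM, lowest). Among the controls they were library 5 for Klhl6 (950 CPM, highest), library 4 for Cdc42ep3 (18.6 CPM, lowest) and library 2 for Cd72 (241 CPM), Espl1 (134 CPM) and Ahnak (16.7 CPM), all highest.

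The effect of D370Y differed with and without ImuBcl6 by limma's test of the difference for 12 named genes. The difference on the log2 scale was -2.18 for Emp2, -1.74 for Eepd1, -1.23 for Celsr1, -1.36 for Vopp1, -1.68 for Ephb2, -0.387 for Cyfip2, -0.413 for Inpp5d, -0.463 for Slc29a1, -1.43 for Tox2 and -1.44 for Ahnak, and 1.79 for Eps8l1. For Capn11 the fitted difference was -3.33, which depends on the pseudocount because a group is at 0 CPM. Emp2, Capn11 and Eps8l1 were called in all 18 fits that left out 1 library, Eepd1 in 16, Vopp1 and Cyfip2 in 13, Celsr1 in 12, Slc29a1 in 8, Ahnak in 5, and Tox2, Ephb2 and Inpp5d in 3. Sex pattern and background cannot be told apart in these differences.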

How the results depend on the processing

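Against 287 higher and 547 lower genes, DESeq2 called 607 genes higher, removal of the length trend left 342 lower, and removal of length and GC trends gave 552 higher. Leaving out 1 library gave 151 to 307 higher and 253 to 653 lower genes, with the lowest counts without control library 3 and counts also down by over 1.5 times without D370Y library 2 or 3. The other counts were within 1.5 times, among them edgeR (312 and 438) and no filter (228 and 412). The share of calls that were higher, 34.4%, was 45.1% with CPM recomputed over listed genes, 46.0% with DESeq2, 45.5% without the length trend and 46.8% without length and GC trends. The replicate block gave 362 higher and 586 lower genes; the labels do not say that a number marks a shared animal or day, same-numbered deviations correlated between -0.28 and 0.51, and 1 of 5 pairs correlated best with its own number. Under the block Bcl6, Rgs1 and Lfng were not called. The difference between backgrounds gave 55 genes, 38 to 57 under the other settings and 16 to 90 without 1 library, moving by over 1.5 times without library 1, 2, 4 or 5 of D370Y without ImuBcl6, control library 1, 2, 3 or 4, ImuBcl6 D370Y library 5, or WT library 1 or 3. Of 198 named called genes, 113 kept the call in all 10 leave-one-out fits, 113 under the 14 other settings and 95 under both, and 0 changed direction. The causes of these shifts were not tested. At this depth a gene at 0 reads may stand at up to 0.0640 to 0.0772 CPM.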
